A study of Arabis alpina with 2 samples.

Results

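The variants described here are single-base differences from the reference assembly that were near-fixed in both sequenced libraries of Arabis alpina and lay outside chromosomes 2 and 8. A site was taken when both variant lists gave the same base at the same position and the allele frequency, the share of reads with the variant base, was at least 0.9 in both libraries. Its coverage, the number of reads over the site, had to be at most 100 in both, and its variant quality, a Phred-like score of the call, at least 25 in both. Sites selected on these 3 values numbered 207 of the 19199 distinct positions and changes listed in either library, and 139 of them lay on chromosomes 1, 3, 4, 5, 6 and 7 and 68 on 41 unplaced sequences. Allele frequency, coverage and variant quality chose the sites, so these values are given below as a description, while substitution type and position were not used by the choice.

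Genomic DNA from flower buds of long-day-grown plants, all in the Pajares background, was sequenced, with 1 library per group and no replicate. The first came from eop055 BC1F2 plants: an eop mutant line, selfed to fix its phenotype, was backcrossed to the line it was induced in, and offspring of a further selfing were pooled by mutant phenotype. The second came from that line, the progenitor pep1-1, whose pep1-1 genotype the pool shares. How many plants entered each library is not stated. The pool list held 14923 sites with a median coverage of 106 reads, and the progenitor list 14029 sites with a median of 100. Positions are given as deposited and were taken as counted from 1 on the assembly used by the authors. No label or column header states its build. The sheet names carry version tags that are not explained, and the progenitor's sheet has a tag that the pool's lacks, so whether both lists were made alike is not known. Genes and flanking sequence at these positions were not analysed here.

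PEP1 of Arabis alpina is the counterpart of the Arabidopsis floral repressor FLC, and pep1 mutants flower without the prolonged cold that Pajares needs. Alkylating mutagens such as ethyl methanesulfonate modify guanine so that it pairs with thymine, which turns a G:C pair into an A:T pair and reads as G-to-A or as C-to-T on the reference strand, depending on which strand held the modified guanine. A variant that the progenitor already carried in both copies stays fixed through a backcross to that progenitor, whereas a change induced later segregates in the backcross family. A difference between a library and the assembly can also come from the assembly itself, or from reads of a similar stretch elsewhere placed at the site.

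G-to-A or C-to-T changes made up 92 of the 207 sites, or 44.4% (95% Wilson interval 37.8 to 51.3%), with 45 G-to-A and 47 C-to-T. The reverse changes, A-to-G and T-to-C, followed with 41 sites (19.8%, 14.9 to 25.8%). A-to-T and T-to-A accounted for 28 sites (13.5%, 9.53 to 18.9%), G-to-T and C-to-A for 20 (9.66%, 6.34 to 14.5%), G-to-C and C-to-G for 14, and A-to-C and T-to-G for 12. Sites near each other are not independent, and all share the same 2 libraries, so these intervals cover counting error only.

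The share of G-to-A or C-to-T changes differed with the place in the genome. Chromosome 4 held 57 of the sites, 33 of them G-to-A or C-to-T, and chromosome 7 held 44, of which 30 were of these types. Chromosome 6 had 17 sites with 5 of these types, chromosome 1 had 9 with 3, chromosome 5 had 8 with 0, and chromosome 3 had 4 with 2. On unplaced sequences 19 of 68 sites were G-to-A or C-to-T, or 27.9% (18.7 to 39.6%).

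For comparison, the same limits were applied to the chromosomes left out. Chromosome 2 held 237 fixed shared sites, of which 218 were G-to-A or C-to-T (92.0%, 87.8 to 94.8%), and chromosome 8 held 335, of which 312 were of these types (93.1%, 89.9 to 95.4%). Shared sites on the same sequences as the 207, with the same coverage and quality limits but below 0.9 in at least 1 library, numbered 559. Of these, 148 were G-to-A or C-to-T (26.5%, 23.0 to 30.3%). The interval for the 207 sites overlapped none of these 3 intervals and lay between them. This difference is described and was not tested. With no coverage maximum the share among 531 sites was 26.0%, and at a quality minimum of 100 it was 61.8% among 102 sites.

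Of 6598 shared sites outside chromosomes 2 and 8, 703 were near-fixed in both libraries. The coverage maximum removed 397 of these and the quality minimum 99 more. Just inside the frequency limit lay A743653C on chromosome 5 at 0.9 in the pool, C36519244T on chromosome 7 at 0.906 in the progenitor and G24933A on scaffold_311 at 0.906 in the progenitor. G470T on scaffold_355 tied with the last of these, at 87 of 96 pool reads. Just outside it lay A28823325C on chromosome 7 at 0.897, G1333839C on chromosome 6 at 0.895 and G28823324T on chromosome 7 at 0.894, all in the pool.

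The deepest site inside the coverage limit was C31071867T on chromosome 4 with 99 progenitor reads. Next, with 96 reads each, came A9720438G on chromosome 4, A27699949G on chromosome 7 and G24933A in the progenitor, and G470T on scaffold_355 in the pool. The least covered outside it were G29426784A on chromosome 7 with 101 reads, C31071879G on chromosome 4 with 102 and T9724548G on chromosome 4 with 104. Among the lowest variant qualities inside the limit was 25.5, at A1334712T on chromosome 6, C44932290T on chromosome 7 and T1404G on scaffold_358, and the highest outside it was 24.5, at A11642205C on chromosome 4 and G42736619A on chromosome 7.

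Runs of 5 or more of these sites with gaps of at most 1 Mb between neighbours were called blocks, whatever the substitution type. They took in 95 sites in 12 blocks, and 57 of the 95 were G-to-A or C-to-T (60%, 49.9 to 69.3%), against 35 of 112 outside blocks (31.3%, 23.4 to 40.3%). The blocks were of 2 kinds. There were 3 long blocks, on chromosomes 4 and 7, that spanned 0.657 to 2.69 Mb and held 43 sites, and 9 short blocks that spanned at most 53.7 kb and held 52 sites. With no coverage maximum 368 sites were in blocks, with 23.9% of these types, and at a quality minimum of 100 the counts were 38 sites and 97.4%. The split into long and short blocks, at 0.1 Mb, was made after the spans were seen. Blocks on scaffold_151, scaffold_204 and scaffold_495 were among the short ones. The length of an unplaced sequence limits the span of any block on it. In the long blocks 40 of 43 sites were G-to-A or C-to-T (93.0%, 81.4 to 97.6%). In the short blocks the number was 17 of 52.

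The long blocks lay towards chromosome ends. The first began at 57181 on chromosome 4, which was the first position listed for that chromosome in either library. The second ended 0.658 Mb before the last listed position of chromosome 4, and the third ended 1.20 Mb before that of chromosome 7. Together they covered 4.90 Mb with 8.78 fixed shared sites per Mb. The rest of the 6 chromosomes held 96 sites over 220 Mb, or 0.436 per Mb. Counting G-to-A or C-to-T changes alone, the density was 8.17 per Mb in the long blocks and 0.150 per Mb in the rest. Since blocks were made from closely spaced sites, a higher density in them was given by the definition. Chromosomes 2 and 8, measured over their whole listed length, held 6.48 and 6.74 fixed shared sites per Mb.

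The block at the start of chromosome 4 ran from 57181 to 2744626 and held 24 sites, with a median gap of 93.9 kb and a largest gap of 381 kb. It opened with 4 G-to-A changes and then turned to C-to-T. G57181A was carried by 68 of 68 pool reads (allele frequency 1, 0.947 to 1) and 56 of 56 progenitor reads (1, 0.936 to 1). G57980A was carried by 72 of 73 pool reads and 65 of 65 progenitor reads, G208951A by 45 of 45 and 61 of 61, and G353985A by 54 of 54 in each library. No progenitor read and 1 pool read of these 4 sites carried the reference base.

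From 397358 on, 14 C-to-T changes followed up to 2274621, with a single G-to-A among them. C397358T was carried by 47 of 47 pool reads and 73 of 73 progenitor reads, C569779T by 62 of 62 and 66 of 66, and C950372T by 52 of 52 and 49 of 49. C981318T stood at 44 of 44 and 81 of 81 reads, C1358261T at 70 of 70 and 51 of 51, and C1429028T at 62 of 62 and 34 of 34. C1663060T stood at 54 of 54 and 41 of 41 reads and C1683866T at 53 of 53 and 56 of 56. These sites held no reference read in either library, and the coverage of the libraries differed by up to 1.84 times between them, at C981318T.

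A reference read appeared in the pool at C1149893T (60 of 61 reads, 0.984, interval 0.913 to 0.997), C1569158T (66 of 67) and C2270190T (41 of 42, 0.976, 0.877 to 0.996), against 91, 68 and 57 progenitor reads without any. With single reads in 1 library these sites were not distinguishable from those without a reference read. The G-to-A among them, G1566552A, was carried by 62 of 62 and 64 of 64 reads and lay 2606 bases from C1569158T. Its variant quality was 155 in the pool and 152 in the progenitor, whereas 11 of the 14 C-to-T changes reached 214 in both, the highest value of the 207 sites.

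The far end of that block was of another kind. T2579190C, with 88 of 88 pool reads and 40 of 40 progenitor reads, was the first site of another type, and another listed site lay 322 bases from it. G2744454A, named after its values were seen, stood at 63 of 63 and 32 of 32 reads. The last 3 sites, T2744624A, G2744625C and G2744626A, lay on adjacent bases, and each had 10 of 10 pool reads (1, 0.722 to 1) and 8 of 8 progenitor reads (1, 0.676 to 1), with variant qualities of 34.5 and 25.5. The 3 sites of other types in the long blocks were all in this stretch of chromosome 4.

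The block at the end of chromosome 4 ran from 51423362 to 52080408 and held 5 sites, all G-to-A and all without a reference read in either library. G51484777A was carried by 61 of 61 pool reads and 81 of 81 progenitor reads, G51542525A by 68 of 68 and 64 of 64, and G51635251A by 79 of 79 and 47 of 47. G52080408A stood at 51 of 51 and 74 of 74 reads. G51423362A, the first, had 60 of 60 pool reads but 17 of 17 progenitor reads (1, 0.816 to 1), so fixation in the progenitor rests on fewer reads there.

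The block at the end of chromosome 7 ran from 47795317 to 49346123 with a median gap of 71.5 kb, and all 14 of its sites were G-to-A. Of these, 10 held no reference read in either library. G47859588A had 76 of 76 pool reads (1, 0.952 to 1) and 58 of 58 progenitor reads (1, 0.938 to 1), G47927957A had 56 of 56 and 85 of 85, and G47962821A had 65 of 65 in each. G48337770A stood at 76 of 76 and 74 of 74 reads, G48403394A at 59 of 59 and 40 of 40, and G48532087A at 66 of 66 and 67 of 67. Both libraries read these sites at similar depth, with block medians of 65.5 reads for the pool and 68 for the progenitor.

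G48765223A followed with 61 of 61 pool reads and 69 of 69 progenitor reads, and G49160666A with 64 of 64 and 67 of 67. G49274626A had 77 of 77 and 64 of 64 reads and G49346123A, the last, 64 of 64 and 79 of 79. The other 4 sites held a few reference reads. G47795317A had 60 of 61 pool reads and 69 of 69 progenitor reads, G49264697A had 71 of 71 and 64 of 65, and G48664482A had 68 of 68 and 70 of 71. G48664606A, 124 bases from the last of these, was the lowest of the block at 78 of 79 pool reads (0.987, 0.932 to 0.998) and 79 of 83 progenitor reads (0.952, 0.883 to 0.981).

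**Figure D1:**
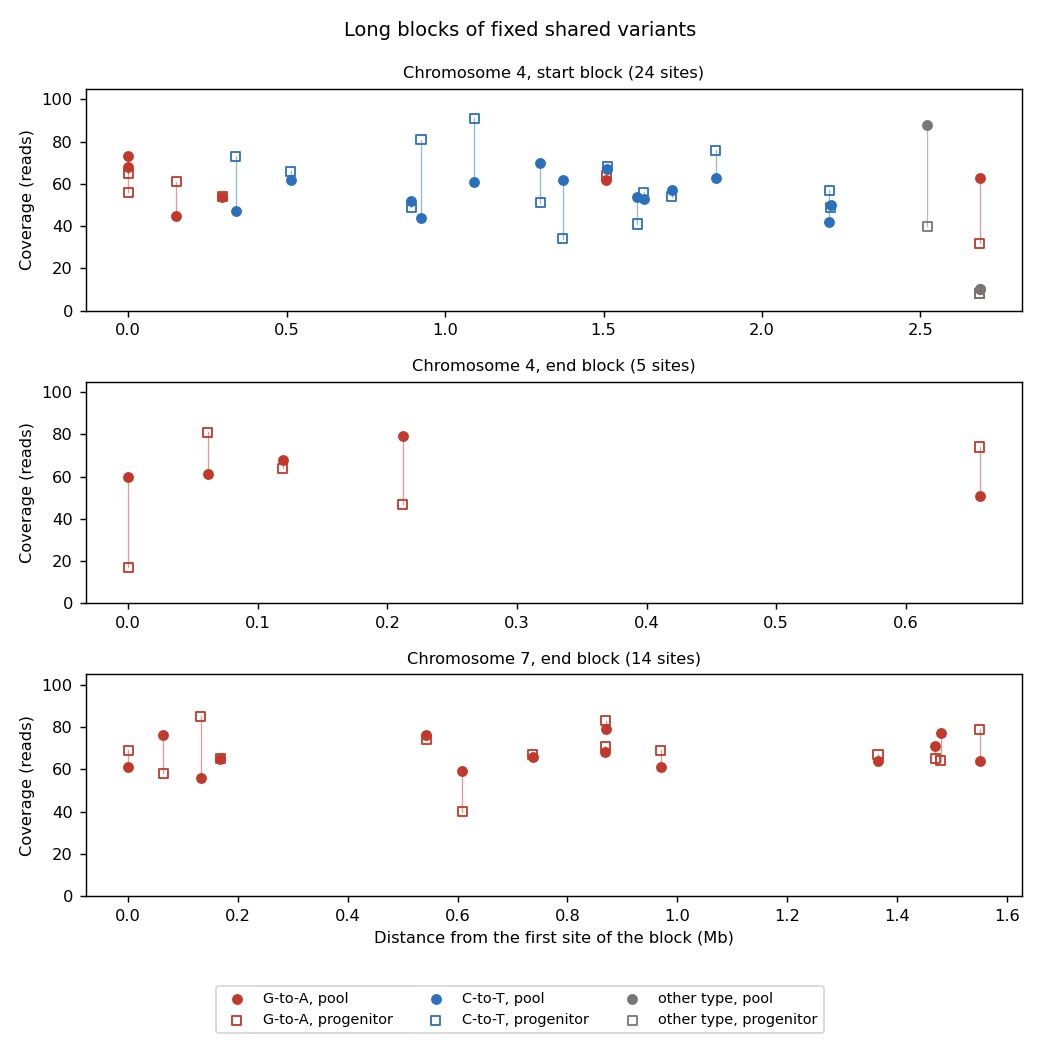
Coverage in reads at each site of the 3 long blocks against the distance in Mb from the block's first site; filled circles are the eop055 BC1F2 pool, open squares the pep1-1 progenitor, colours the substitution type, and a line joins the values of a site. The start block of chromosome 4 changes from G-to-A to C-to-T after its first 4 sites, with 1 G-to-A among the C-to-T changes. Its far end holds G-to-A and other types, and the end blocks of chromosomes 4 and 7 hold G-to-A only.

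Neighbouring G-to-A or C-to-T sites within the long blocks were of the same type in 33 of 37 pairs (89.2%, 75.3 to 95.7%). Outside them, on the same 6 chromosomes, the count was 14 of 28 pairs (50.0%, 32.6 to 67.4%). The outside pairs were taken along each chromosome at any distance, from a few bases to many Mb. The spacing of the pairs was therefore unlike that in the long blocks. On chromosome 8, 302 of the 312 fixed shared changes of these types were C-to-T, and on chromosome 2, 168 of 218 were G-to-A.

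Within the long blocks, 6 shared near-fixed sites missed the limits of the choice, 3 of them G-to-A or C-to-T and 3 of other types. G126777A and C1524992T on chromosome 4 and G49236644A on chromosome 7 were carried by every read of both libraries, 58 to 95 reads each, but had a variant quality of 3.24 to 12.7. The sites of other types lay near the far end of the start block of chromosome 4. A2579512C and T2580561A had 131 and 128 pool reads, above the coverage maximum, and C2743691A had a variant quality of 3.80 in the pool. Apart from these, C848180T on chromosome 4 passed the frequency limit in the pool alone, at 0.957 against 0.831 in the progenitor. These sites were named after their values were seen.

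Changes listed in the pool alone also lay inside the long blocks, at intermediate frequency. With a variant quality of at least 25 and at least 10 reads, the end block of chromosome 7 held 5 such changes of the G-to-A and C-to-T types, all C-to-T. They were C48576617T at 0.464 (0.340 to 0.593), C49094798T at 0.438, C48980878T at 0.417, C49050786T at 0.270 and, at 379 reads, C48150555T at 0.794. Close to C48150555T lay deeply covered shared sites of similar frequency. A48150572G stood at 0.817 with 382 pool reads and at 0.832 with 488 progenitor reads. In the end block of chromosome 4 the 4 such changes were all G-to-A, from 0.292 at G52022695A to 0.547 at G52065738A. Within these types and limits, the fixed sites of chromosome 7 and the pool-only changes among them were of opposite types. Those at the end of chromosome 4 were of the same type. Positions listed in 1 library alone, whatever their type and quality, numbered 25 for the pool and 32 for the progenitor in the end block of chromosome 7. The counts were 10 and 11 in the end block of chromosome 4, and 22 and 23 in its start block.

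The start block of chromosome 4 held 4 pool-only changes of these types, all G-to-A. G2474421A stood at 0.397 with 58 reads, G2681661A at 0.336 with 301 reads and G1288476A at 0.220 with 118 reads. G2477783A stood at 0.979 with 3583 reads, a depth far from that of the fixed sites. Progenitor-only changes of these types numbered 1 in each end block, G51772144A at 0.310 with 29 reads and C48930519T at 0.318 with 22 reads. Each was of the same type as the pool-only changes of its block, but this rests on 1 site per block. The start block of chromosome 4 held 0 such progenitor-only changes. All changes listed in a single library were named after their values were seen.

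Of the 207 sites, 96 had another fixed shared site within 1 kb (46.4%, 39.7 to 53.2%) and are called clustered here, and the other 111 are called solitary. Clustering was less frequent among fixed shared sites of chromosome 2, at 6.75% (4.20 to 10.7%), and of chromosome 8, at 5.67% (3.66 to 8.69%). In the long blocks 8 of 43 sites were clustered (18.6%, 9.74 to 32.6%). That interval overlapped the interval of chromosome 2 but lay above that of chromosome 8. Among the shared sites below 0.9 on the same sequences, the share with another such site within 1 kb was 54.0% (49.9 to 58.1%), an interval that overlapped that of the 207 sites. The clustered sites formed 31 clusters with a median span of 56 bases, 17 of them pairs and 6 of 5 or more sites. Among them 15 clusters held no G-to-A or C-to-T change, 13 held them with other types, and 3 held only these. Counting each cluster once, the 207 sites were 142 separate places.

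**Figure D2:**
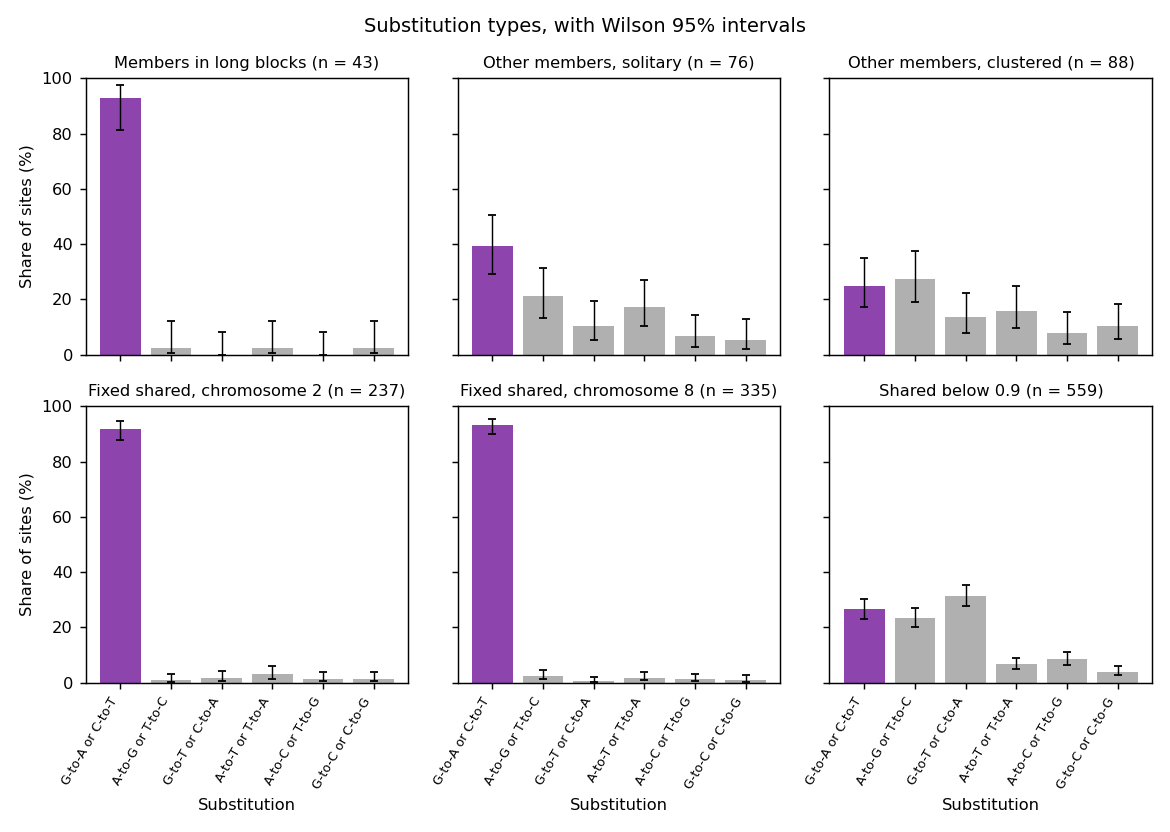
Share of sites (%) by substitution type, pooled over the strands, for the fixed shared variants outside chromosomes 2 and 8 in 3 classes (long blocks, solitary and clustered) and for 3 comparison sets; bars are shares and error bars are Wilson 95% intervals. G-to-A or C-to-T stands at 93.0% in the long blocks, 39.5% at other solitary sites and 25.0% at other clustered sites, against 92.0% on chromosome 2 and 93.1% on chromosome 8.

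The largest cluster within 1 kb lay on chromosome 4 from 31071867 to 31072685, with 8 sites of 5 substitution types. C31071867T was carried by 85 of 86 pool reads and 99 of 99 progenitor reads, G31071941A by 74 of 77 and 81 of 84, and T31071943C by 80 of 82 and 83 of 86. Coverage declined along the cluster to 36 of 36 and 28 of 29 reads at C31072685G, its last site. Reference reads were present in the progenitor at 6 of the 8 sites, and variant quality went from 214 down to 37.5 in the pool.

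On chromosome 6, 7 sites from 1333787 to 1334736 included no G-to-A or C-to-T change. They had 26 to 32 pool reads and 19 to 36 progenitor reads. T1333813A was at 27 of 29 pool reads (0.931, 0.780 to 0.981) and 25 of 26 progenitor reads, and each of the 7 had a listed site below 0.9 within 1 kb.

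Chromosome 7 held 3 tight clusters of 5 or more sites. From 21081538 to 21081657 there were 6 sites of mixed type with 16 to 38 pool reads, and from 33219436 to 33219494 there were 5 sites of mixed type with 11 to 22 pool reads. From 44932290 to 44932339, within 50 bases, all 5 sites were G-to-A or C-to-T, with 39 to 54 pool reads and 47 to 66 progenitor reads, and no reference read in either library. Unlike the long blocks, this cluster had both types within 50 bases, 2 G-to-A and 3 C-to-T, and its variant quality stayed between 25.5 and 50.5 despite that depth. Each of its sites also had a listed site below 0.9 within 1 kb.

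Clusters and long blocks also differed in what else was listed around them. A site below 0.9 in either library lay within 1 kb of 53 of the 88 clustered sites outside long blocks (60.2%, 49.8 to 69.8%). The count was 26 of the 76 solitary sites there (34.2%, 24.5 to 45.4%) and 5 of the 43 sites in long blocks (11.6%, 5.07 to 24.5%). For fixed shared sites of chromosome 2 it was 10 of 237 (4.22%, 2.31 to 7.59%) and for those of chromosome 8 it was 28 of 335 (8.36%, 5.85 to 11.8%).

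Substitution type went with isolation. Outside the long blocks, G-to-A and C-to-T made up 30 of 76 solitary sites (39.5%, 29.2 to 50.7%) and 22 of 88 clustered sites (25.0%, 17.1 to 35.0%), with overlapping intervals. No other listed site of either library lay within 1 kb of 56 of the 92 G-to-A or C-to-T sites (60.9%, 50.7 to 70.2%), against 22 of the 115 sites of other types (19.1%, 13.0 to 27.3%). The long blocks held 33 of these 56. Outside them the counts were 23 of 52 (44.2%, 31.6 to 57.7%) and 22 of 112 (19.6%, 13.3 to 28.0%), whose intervals did not overlap.

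**Figure D3:**
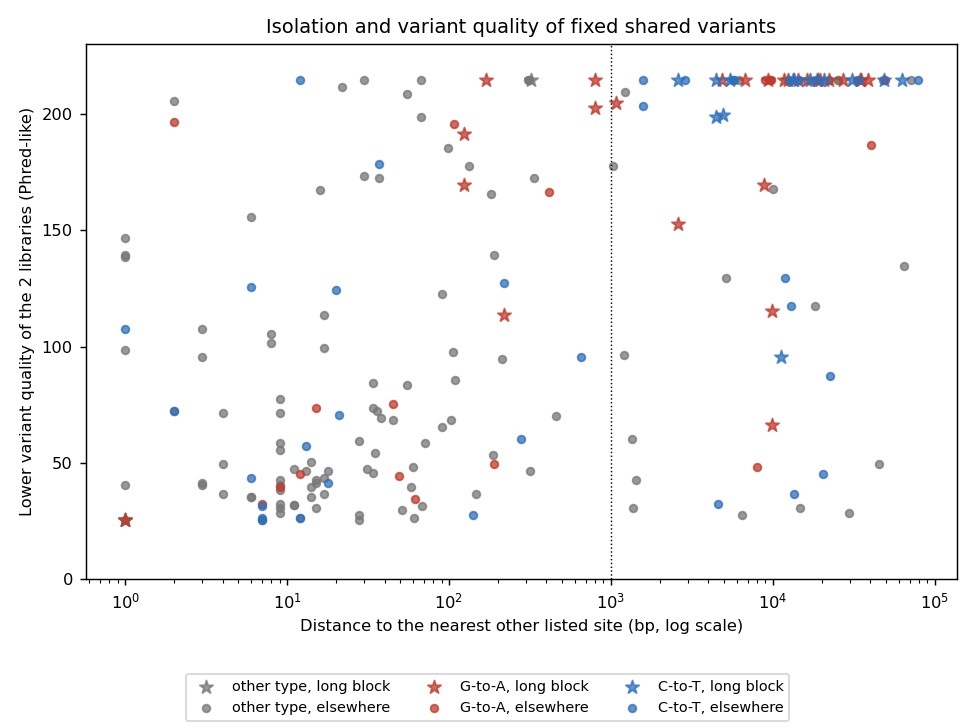
Lower variant quality of the 2 libraries against the distance in bases to the nearest other listed site (log scale) for the 205 sites with another listed site on their sequence; stars are sites in long blocks, circles all others, colours the substitution type, and the dotted line marks 1 kb. Sites at the highest quality of 214 and beyond 1 kb are mostly G-to-A or C-to-T, 38 against 7 of other types. Outside the long blocks the counts are 13 and 7. Variant quality was also used to choose the sites.

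Variant quality reached 214 in both libraries at 53 sites, of which 41 were G-to-A or C-to-T. The long blocks held 28 of the 53. The other 25 were spread over chromosomes 1, 3, 4, 5, 6 and 7 and unplaced sequences, and 14 of them were G-to-A or C-to-T (56.0%, 37.1 to 73.3%). These included G24827165A on chromosome 1, with 53 of 53 pool reads and 49 of 49 progenitor reads, and C12985846T on chromosome 3, with 55 of 55 and 69 of 69. C6324027T on chromosome 4 had 64 of 64 reads in each library and G29204842A on chromosome 7 had 65 of 65 and 66 of 66. Their quality was fixed by this choice, and these sites were named after their values were seen. Their coverage lay within the range of the long-block sites, and none had another listed site within 1 kb. They lay outside blocks, but not all were far from other fixed shared sites of these types. C25258452T lay 431287 bases from G24827165A, and G29982051A lay 777209 bases from G29204842A.

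High-quality sites of other types occurred as well. T22309093C on chromosome 5 was carried by 73 of 73 pool reads and 68 of 68 progenitor reads, A21743850G on chromosome 6 by 54 of 54 and 76 of 76, and A16656065G on chromosome 4 by 72 of 72 and 59 of 59. Each was more than 20 kb from any other listed site, and all 3 were named after their values were seen. High scores and isolation were thus found in other types too.

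The unplaced sequences held at most 5 of the sites each, and 26 of the 41 held 1. The 3 with 5 sites were scaffold_151, scaffold_204 and scaffold_495. On scaffold_495 all 5 lay within 27 bases, from T14867G with 24 of 25 pool reads and 16 of 16 progenitor reads to A14893T with 32 of 32 and 19 of 19, and 1 of the 5, C14887T, was of the G-to-A and C-to-T types. On scaffold_204, 4 sites from A54959T to C54991A lay within 33 bases, and C32227T, with 54 of 54 and 44 of 44 reads, lay apart. On scaffold_151 the only G-to-A or C-to-T change was G103410A, with 42 of 42 and 49 of 49 reads.

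Over all 207 sites the pool had 92 reference reads among 9627 (0.956%, 0.780 to 1.17%) and the progenitor 88 among 9490 (0.927%, 0.753 to 1.14%). No reference read was present in either library at 134 sites (64.7%, 58.0 to 70.9%). In the long blocks reference reads were 6 of 2529 in the pool (0.237%, 0.109 to 0.517%) and 6 of 2481 in the progenitor (0.242%, 0.111 to 0.527%). Elsewhere they were 86 of 7098 (1.21%, 0.982 to 1.49%) and 82 of 7009 (1.17%, 0.944 to 1.45%). The frequency limit bounds all of these shares.

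Coverage of the 207 sites had a median of 50 reads in the pool, with quartiles at 28 and 64, and of 46 in the progenitor, with quartiles at 25.5 and 64. In the long blocks the medians were 62 and 64 reads, close to the 61 and 62 of chromosome 2 and the 64 and 61 of chromosome 8. Elsewhere they were 42 in each library, with fewer than 20 reads at 32 of 164 sites in the pool and 34 in the progenitor. The least covered in the pool were C16564G on scaffold_294 with 4 pool reads and, with 5 each, T36233238G on chromosome 7 and G88550T on scaffold_159. A count of 4 of 4 reads leaves an interval of 0.510 to 1, so fixation is not established at such sites.

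The ratio of progenitor to pool coverage had a median of 1.00 over the 207 sites (interquartile range 0.8 to 1.22). It was below 0.5 at 10 sites. These were 8 of the 115 sites of other types (6.96%, 3.57 to 13.1%) and 2 of the 92 G-to-A or C-to-T sites (2.17%, 0.598 to 7.58%). The 2 intervals overlapped. The lowest was A13373426T on chromosome 4, with 64 of 64 pool reads and 8 of 8 progenitor reads, and next came C29231A on scaffold_148, with 76 of 76 and 21 of 21, both named after their values were seen. Among sites with the highest quality in both libraries, the median ratio was 1.02 for the 41 G-to-A or C-to-T changes and 0.807 for the 12 of other types. With 1 library per group, depth and genotype cannot be told apart as the source of such ratios.

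**Figure D4:**
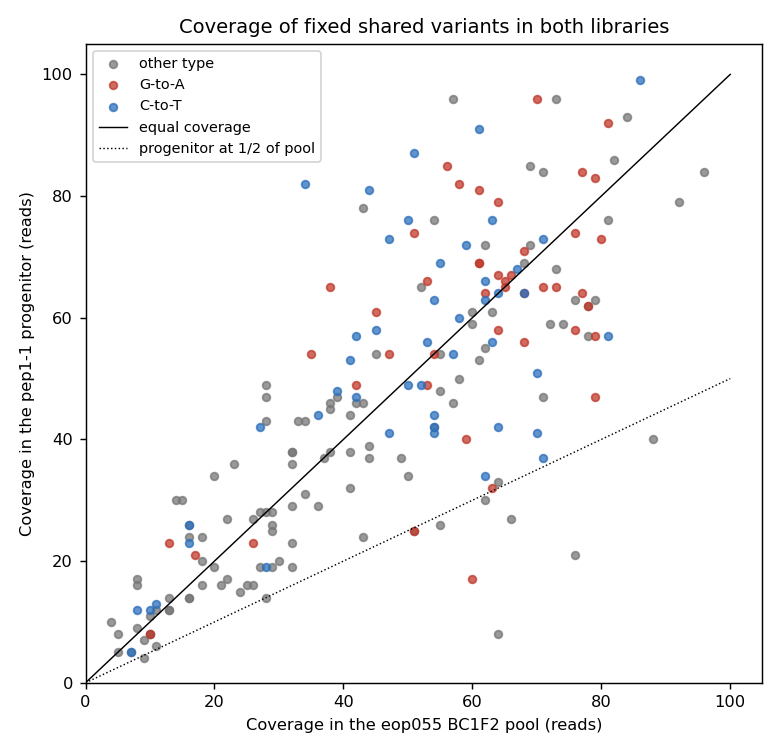
Coverage in reads of each of the 207 sites in the pep1-1 progenitor against the eop055 BC1F2 pool, with colours for the substitution type, a solid line at equal coverage and a dotted line where the progenitor has 1/2 of the pool's reads. G-to-A or C-to-T sites lie mostly between 40 and 90 reads in both libraries, and 10 sites fall below the dotted line.

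Near-fixed sites listed in a single library mostly had few reads. Outside chromosomes 2 and 8, with up to 100 reads and a quality of at least 25, the pool had 311 near-fixed sites, of which 51 were at positions not listed in the progenitor, with a median of 4 reads. The progenitor had 325, of which 42 were at positions not listed in the pool, with a median of 7 reads. G-to-A or C-to-T changes numbered 13 of the 51 and 11 of the 42, against 92 of the 207 sites in both lists. Being unlisted does not show that the variant base was absent, since sites with few reads or low quality are unlisted too.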

How the data were processed

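The deposited data were a list of single-base variants per library, assigned to samples through the genotype that its sheet name carries. The submitters' processing notes name SAMtools, Bowtie2 and DESeq, with no version or role. Filters and other settings were not stated. Allele frequency is a deposited fraction per the file headers. The deposited values headed reads are not whole and were taken as a variant quality score, and those headed quality are whole and were taken as the count of variant reads. Coverage was that count divided by the frequency and rounded, which gave the deposited frequency within 6e-05 at all 14923 and 14029 sites.

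The sites and lists were chosen with earlier results of these data known. The rule for named sites took, in each block, the first, last and lowest site and those of other types, and on chromosomes 4 and 7 up to 15 sites a block by position. It also took the sites at the limits, the 5 lowest and 5 highest in pool coverage, the largest cluster and the unplaced sequences with the most sites. Others are marked. Block and distance steps were tested on simulated data. No test between groups was made. Wilson intervals (95%) cover counting error only, and PCR duplicates were not distinguishable. Python 3.11.15, numpy 2.4.6, pandas 2.3.3, scipy 1.17.1 and matplotlib 3.10.9 were used.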

Additional observations from a re-analysis of the deposited data

How the results depend on the processing

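Of 74 values under alternatives, 47 stayed within the interval of the main value, or within 1.5 times for counts, and 27 moved. With no coverage maximum there were 531 sites, 368 of them in blocks, and G-to-A and C-to-T made up 26.0% of all, 23.9% in blocks. The clustered share was then 73.8% and the share without reference reads 28.1%. At a variant quality minimum of 100 there were 102 sites, 38 in blocks, with G-to-A and C-to-T at 61.8% of all, 97.4% in blocks and 40.6% outside. The clustered share was then 22.5%, the share with a listed site below 0.9 within 1 kb 27.5% and the share without reference reads 71.6%. With no quality minimum 168 sites were in blocks, with 48.2% G-to-A and C-to-T there, and the clustered share was 53.6%. A coverage minimum of 20 gave a clustered share of 35.2%. On chromosomes alone G-to-A and C-to-T were 52.5%. The share without reference reads was 71.7% at a frequency minimum of 0.95 and 54.9% at 0.8. A listed site below 0.9 lay within 0.2 kb of 23.2% and within 5 kb of 54.6%. Chosen after seeing the data, blocks of at least 0.1 Mb held 43 sites with 93.0% G-to-A and C-to-T, which were 31.7% of all other sites. These types were 57.7% of all 111 solitary sites, those in long blocks included, and 39.5% of the 76 solitary sites outside long blocks. The cause was not tested. No paired analysis was possible because there was a single library per group, which also left no replicate to drop. Depth limits fixation at shallow sites.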
